A study of Mus musculus with 8 samples.

Results

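The haem synthesis enzymes are the proteins that build haem, the iron-containing ring of haemoglobin and of the cytochromes. Probe sets were taken where the platform annotation gives the symbol of Alas1, Alas2, Alad, Uros, Urod, Cpox or Fech. This gave 9 probe sets for all 7 genes, of 12488 on the array. Of these, 8 passed the filter on dim signals and were tested, while the single Fech probe set did not pass. The tissue was mouse olfactory mucosa, the nasal lining that carries the olfactory neurons, and total RNA of each sample was read on a single-colour expression array. Every sample came from an animal whose olfactory bulbs had been taken out on both sides, which removes the target of those neurons in the controls as well. The 8 arrays form 4 groups of 2: C57BL/6 after carrier, C57BL/6 after CCL3, Ccl3-/- after carrier and Ccl3-/- after CCL3. CCL3 is a chemokine that draws macrophages and other leukocytes, and the series title asks how it acts on macrophage entry into the olfactory epithelium. The labels give no age, dose, interval after surgery or number of animals behind a sample.

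Haem is made in a chain of steps that starts and ends in the mitochondrion. Aminolevulinate synthase joins glycine and succinyl-CoA and sets the pace. Alas1 encodes the form used by all cells, whose transcript is held down by haem itself, and Alas2 encodes the form of developing red cells, whose gene is driven by erythroid transcription factors such as GATA1. Alad, Uros and Urod then act in the cytosol, and Cpox and Fech act in the mitochondrion, where Fech inserts the iron. The olfactory mucosa is rich in cytochrome P450 enzymes, each of which holds a haem, so the pathway serves its own cells as well as any red cells within the tissue.

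The stretch before the start site of Alas2 is shown because the comparison of the red cell form with the general enzymes runs through all results. The sequence is RefSeq's, build GRCm38.p6, and the 250 bases before the annotated start (chrX:150547167-150547416, plus strand) are given, with capitals marking GATAA, the core read by GATA factors, and CACCC, a core of KLF sites, on either strand.
Alas2: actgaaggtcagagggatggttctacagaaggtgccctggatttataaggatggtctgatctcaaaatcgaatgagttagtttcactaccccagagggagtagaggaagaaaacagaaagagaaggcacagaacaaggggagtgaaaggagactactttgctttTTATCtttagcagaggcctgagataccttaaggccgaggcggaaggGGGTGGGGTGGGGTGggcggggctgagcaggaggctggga

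The GATAA letters of Alas2 lie 86 bases before the start, read on the opposite strand, and its CACCC letters lie 40, 35 and 30 bases before it without overlapping. Over all 32851 promoter windows of 300 bases in that table, GATAA occurs on either strand in 25.4% and CACCC in 57.5%. Windows were found for 6 of the 7 genes, counting every listed start. GATAA occurs in 3 of them (Alas2, Uros and Cpox) and CACCC in 5, where by gene 28.4% and 59.8% of 27025 genes hold them. The letters describe the windows and do not show that a factor is bound.

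In these arrays no probe set of the haem enzymes passed an adjusted p of 0.05 in any of 7 comparisons by limma, nor did any other of the 8150 tested (0% in the genotype comparison after carrier, after CCL3 and averaged, in the CCL3 comparison of either genotype and averaged, and in the interaction). The trimmed means of the arrays were already equal and their medians were 581.4 to 660.3. As no label states that replicates come from different animals, the p-values cover only how far these arrays differ among themselves, possibly for technical reasons, and 2 arrays a group limit every precision below. Values are linear intensities as deposited. Differences are on the scale of log2(intensity + 102.3), which understates those of dim probe sets, and carry the standard error of the limma fit. The targeted gene went against the genotype labels: its probe set read 727.3 to 812.2 where the label is Ccl3-/- and 159.4 to 386.5 where it is C57BL/6. The deleted stretch is not described, so the probe set may check nothing, and every genotype direction below rests on the labels. C57BL/6 carrier replicate 1 stood apart in its Gapdh 3' to 5' signal ratio, at 2.59 against 0.755 to 1.31 on the other arrays. The same ratio for Actb did not go with it, at 1.58 on that array and 1.61 to 2.17 on the others. The olfactory label was met by the defining neuron marker Omp, which read 4251.1 on that array and 8657 to 21778.7 on the others. The neuron markers were not alike on that array, as Adcy3 read 10132.7 there and 1364.3 to 4842.6 on the others. Over the 7 tested neuron markers, the mean log2 level relative to each marker's own mean was -0.16 there. It was lowest on Ccl3-/- carrier replicate 2, at -0.72.

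Alas2 gave the lowest intensities in C57BL/6 after carrier and the highest in Ccl3-/- after CCL3. It read 803.4 and 735 in C57BL/6 after carrier and 1533.5 and 1089.5 in C57BL/6 after CCL3. It read 1388.5 and 1531.6 in Ccl3-/- after carrier and 2704.2 and 3470.3 in Ccl3-/- after CCL3. The lowest group and the highest group overlap no other, while C57BL/6 after CCL3 and Ccl3-/- after carrier overlap each other. Group means were 769.2 ± 48.4, 1311.5 ± 314, 1460 ± 101 and 3087.2 ± 542 in that order (SD, n = 2). From the lowest array to the highest the intensity differed 4.72-fold, the widest range among the 9 probe sets. In bulk RNA, fewer red cells and less Alas2 RNA in each red cell cannot be told apart.

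**Figure D1:**
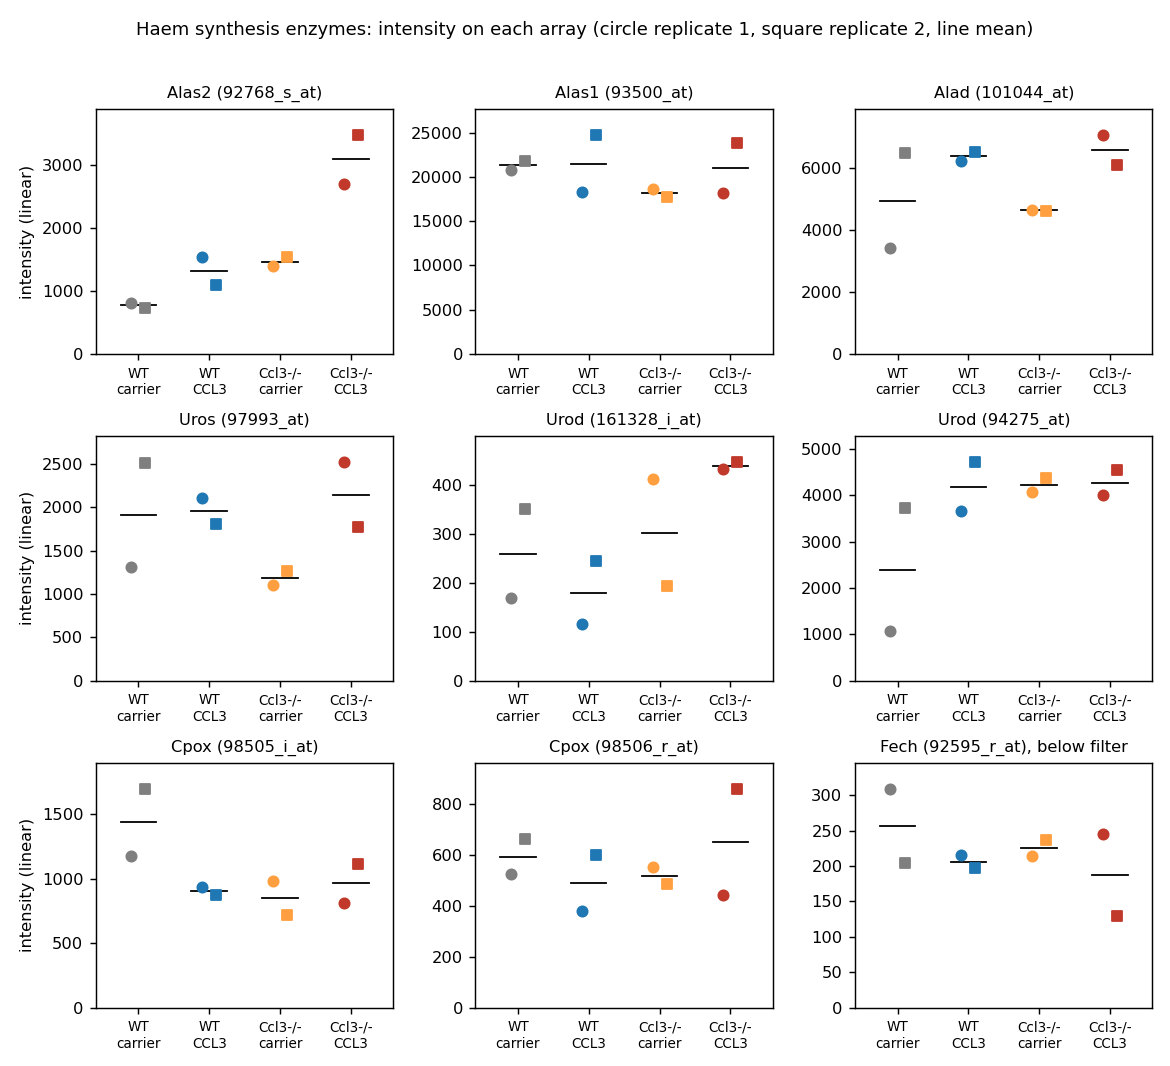
Linear intensity (vertical axes, starting at 0) of each of the 9 haem enzyme probe sets on the 8 arrays, by group, with a circle for replicate 1, a square for replicate 2 and a line at the mean of both. Alas2 is at 735 to 803.4 in C57BL/6 (WT) after carrier and at 2704.2 to 3470.3 in Ccl3-/- after CCL3, whereas the Alas1 groups overlap except that Ccl3-/- after carrier lies under C57BL/6 after carrier.

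Each genotype and injection comparison placed Alas2 higher on the arrays labelled Ccl3-/- and after CCL3, without passing the threshold over all probe sets. The genotype difference was 0.84 ± 0.26 after carrier (SE, n = 2 per group; adjusted p = 0.375 in limma). After CCL3 it was 1.18 ± 0.26, a 2.27-fold difference (adjusted p = 1 in limma). CCL3 against carrier gave 1.02 ± 0.26 in Ccl3-/- (adjusted p = 0.722) and 0.68 ± 0.26 in C57BL/6 (adjusted p = 0.911). The CCL3 difference of Ccl3-/- exceeded that of C57BL/6 by 0.34 ± 0.37 (adjusted p = 0.923 for the interaction), so a dependence on genotype was not shown. Averaged over injections, Alas2 was 1.01 ± 0.19 higher on the arrays labelled Ccl3-/-, with the arrays of each injection separated by genotype (adjusted p = 0.468, unadjusted p = 0.000291 in limma). Averaged over genotypes, it was 0.85 ± 0.19 higher after CCL3 (adjusted p = 0.967, unadjusted p = 0.00103). These comparisons share arrays, so they are not independent of each other. When any array was left out, the genotype difference after carrier stayed between 0.78 and 0.91 and the CCL3 difference in Ccl3-/- between 0.85 and 1.20. The CCL3 difference in C57BL/6 ranged from 0.45 without C57BL/6 CCL3 replicate 1 to 0.91 without replicate 2 of that group, and the interaction from 0.11 to 0.57. Without C57BL/6 carrier replicate 1 the genotype difference after carrier was 0.90.

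The share of haem enzyme probe sets under an unadjusted p of 0.05 in limma was small in number and is read against all probe sets. After carrier, 3 of the 8 were under it by genotype (Alas2 higher, Urod 94275_at higher, Cpox 98505_i_at lower), where 11.4% of all tested probe sets were. After CCL3 it was 1 of 8 by genotype, against 1.48%, and for CCL3 in Ccl3-/- it was 2 of 8 (Alas2 and Uros), against 4.9%. For CCL3 in C57BL/6 it was 1 of 8 against 4.29%. The averages gave 1 of 8 for genotype against 5.93% and 1 of 8 for CCL3 against 4.53%, and the interaction gave 0 of 8 against 5.06%. Where 1 probe set was under that value, it was Alas2. The other 7 probe sets of the general enzymes had median differences of -0.16 for genotype after carrier, 0.07 for genotype after CCL3, 0.22 for CCL3 in Ccl3-/- and -0.0028 for CCL3 in C57BL/6. The medians over all 8150 probe sets were -0.03, 0.02, 0.03 and -0.02.

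**Figure D2:**
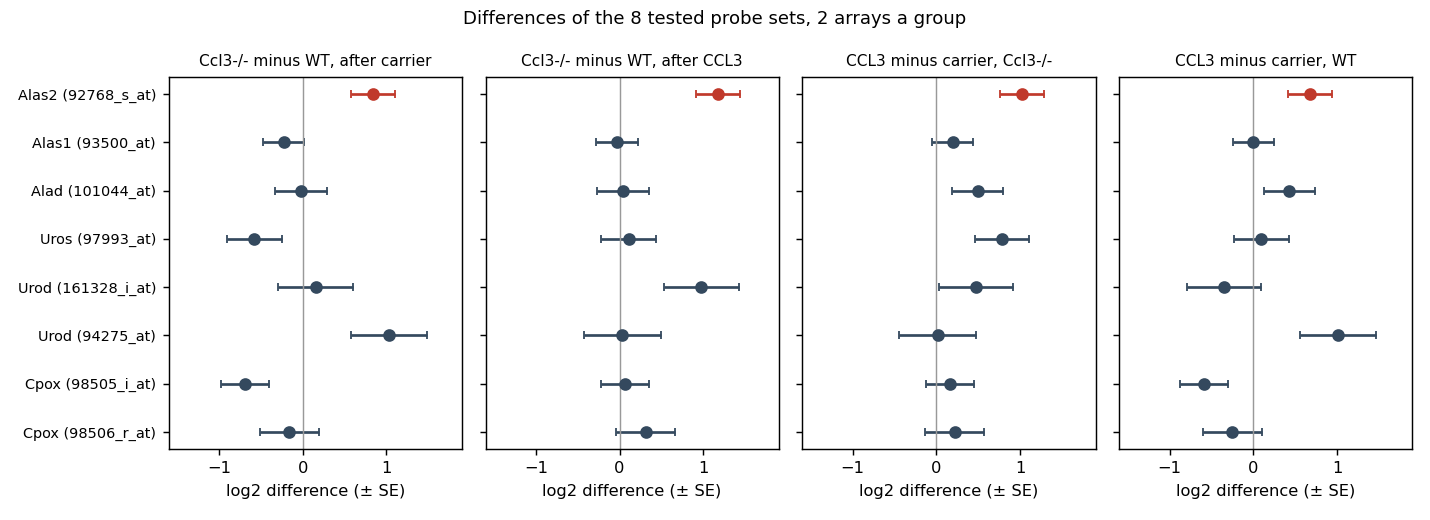
Difference of each of the 8 tested probe sets on the log2(intensity + 102.3) scale (horizontal axes) in 4 comparisons with 2 arrays a group; points are limma estimates and bars their standard errors, with Alas2 in red. Alas2 is at 0.84, 1.18, 1.02 and 0.68 from left to right, while Alas1 stays between -0.22 and 0.19.

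Alas1, the synthase of all cells, was bright on every array and varied least in ratio. It read 20729.3 and 21831.1 in C57BL/6 after carrier, 18260 and 24685.6 in C57BL/6 after CCL3, 18646.2 and 17744.5 in Ccl3-/- after carrier, and 18170.7 and 23809.3 in Ccl3-/- after CCL3. The highest array exceeded the lowest 1.39-fold. Within each CCL3 group, replicate 2 was the brighter array, and the CCL3 groups overlap each other and both carrier groups in part. After carrier the arrays labelled Ccl3-/- lay below those of C57BL/6 without overlap, at -0.22 ± 0.25 (adjusted p = 0.714 in limma). CCL3 against carrier gave 0.19 ± 0.25 in Ccl3-/- and -0.0028 ± 0.25 in C57BL/6, neither beyond its error.

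The difference between the isoenzymes was taken within each array, so that an array's overall brightness cancels. Alas2 minus Alas1 was -4.52 and -4.71 in C57BL/6 after carrier, -3.49 and -4.38 in C57BL/6 after CCL3, -3.65 and -3.45 in Ccl3-/- after carrier, and -2.70 and -2.74 in Ccl3-/- after CCL3. As probe sets differ in brightness, only the change between groups has a meaning here. By genotype label it was 1.14 higher in Ccl3-/- (4 arrays) than in C57BL/6 (4 arrays), a 2.2-fold shift toward Alas2 (exact permutation test over arrays, two-sided, p = 0.0571, where 4 against 4 can reach 0.0286). C57BL/6 after CCL3 replicate 1 is the array that overlaps the Ccl3-/- range. With single arrays left out the shift was 0.99 to 1.40 and the exact permutation p 0.0286 to 0.114. The lowest of these p came without that overlapping array, which leaves the genotypes separated by construction. After CCL3 the shift was 0.76 over both genotypes (exact permutation p = 0.171). Both p-values are for 2 comparisons and are not adjusted.

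Against the other enzymes, the Alas2 difference was larger in the genotype average for each of the 7 probe sets. The excess of the Alas2 difference was 1.14 ± 0.23 over Alas1, 1.00 ± 0.32 over Alad, 1.25 ± 0.33 over Uros and 1.32 ± 0.22 over Cpox 98505_i_at (SE over the 8 arrays, untested). It was 0.93 ± 0.30 over Cpox 98506_r_at, and it was near its error over Urod, at 0.48 ± 0.50 for 94275_at and 0.44 ± 0.43 for 161328_i_at. Urod 161328_i_at was tested only through arrays labelled Ccl3-/-, so its excess and its place among the 7 are partly set by the filter. For CCL3 averaged over genotypes, the excess was 0.76 ± 0.23 over Alas1, 1.07 ± 0.22 over Cpox 98505_i_at and 0.87 ± 0.30 over Cpox 98506_r_at. It was smaller against its error over Alad (0.39 ± 0.32), Uros (0.41 ± 0.33) and Urod (0.34 ± 0.50 for 94275_at and 0.79 ± 0.43 for 161328_i_at). These excesses share the Alas2 probe set and are not independent.

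Alad, which joins aminolevulinate molecules into porphobilinogen, was lower after carrier than after CCL3 on 3 of the 4 carrier arrays. It read 3411.8 and 6489.6 in C57BL/6 after carrier, 6246.5 and 6530.2 in C57BL/6 after CCL3, 4667.3 and 4622 in Ccl3-/- after carrier, and 7072.9 and 6107.8 in Ccl3-/- after CCL3. In Ccl3-/- the injections did not overlap, with CCL3 at 0.49 ± 0.31 over carrier (adjusted p = 0.94 in limma). In C57BL/6 the difference was 0.43 ± 0.31 and rested on C57BL/6 carrier replicate 1, since it was -0.02 without that array.

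Uros, which closes the porphyrin ring, was lowest in Ccl3-/- after carrier. It read 1309.3 and 2516.5 in C57BL/6 after carrier, 2113.1 and 1804.2 in C57BL/6 after CCL3, 1104.8 and 1272.3 in Ccl3-/- after carrier, and 2520.9 and 1772.6 in Ccl3-/- after CCL3. The 2 Ccl3-/- carrier arrays lie under all other arrays. CCL3 against carrier in Ccl3-/- was 0.78 ± 0.33, a 1.72-fold difference (adjusted p = 0.94 in limma). Genotype after carrier was -0.58 ± 0.33, and it was -1.02 without C57BL/6 carrier replicate 1 and -0.13 without C57BL/6 carrier replicate 2.

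Urod, which trims the side chains of the ring, has a bright and a dim probe set that did not run together. The bright one, 94275_at, read 1064.5 and 3726.8 in C57BL/6 after carrier and 3663.6 to 4708.7 on the other 6 arrays. Its differences in both comparisons with C57BL/6 after carrier were 1.03 ± 0.46 for genotype and 1.01 ± 0.46 for CCL3. They rested on C57BL/6 carrier replicate 1: without it they were 0.17 and 0.15, and with that array alone in its group they were 1.89 and 1.87 and passed (adjusted p = 0.0245 and 0.033 in limma). The dim probe set, 161328_i_at, exceeded the filter value of 362.7 on 3 arrays, at 411.1 in Ccl3-/- after carrier and 432.1 and 446 in Ccl3-/- after CCL3. It was thus tested only through arrays labelled Ccl3-/-. Its genotype difference after CCL3 was 0.98 ± 0.44, where 94275_at gave 0.03 ± 0.46, so no direction is given for Urod.

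Cpox, which makes protoporphyrinogen, has probe sets 98505_i_at and 98506_r_at from the same record. By 98505_i_at it read 1178.8 and 1695.9 in C57BL/6 after carrier and 718.3 to 1118.2 on the other 6 arrays. The C57BL/6 carrier arrays lie above all others, and the genotype difference after carrier was -0.69 ± 0.29 (adjusted p = 0.424 in limma). It was -0.93 without C57BL/6 carrier replicate 1 and -0.44 without C57BL/6 carrier replicate 2. By 98506_r_at the groups overlapped throughout, from 379.9 to 859.2, and the same difference was -0.16 ± 0.35. Fech read 130.1 to 308.4, with a median of 214.85, and exceeded the filter value on 0 of 8 arrays, so its level is not given a direction. The enzymes between Alad and Uros and between Cpox and Fech are not members. Of these, Ppox was on the array and read 604.9 to 1616.9, with 0.65 ± 0.31 for CCL3 against carrier in Ccl3-/-.

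The red cell genes were set beside Alas2, which red cell precursors express. Of 38 red cell symbols listed, older aliases included, 21 had a probe set and 16 were tested. Rhd, Hba-x and Nfe2 exceeded the filter value only on C57BL/6 carrier replicate 2 and on Ccl3-/- arrays after CCL3. They are thus among the 16 only through the group in which they were high, so counts with that group are partly set by the filter. After CCL3 all 16 were higher on the arrays labelled Ccl3-/-, with a median of 0.54 against 0.02 over all probe sets, and 0 passed the adjusted threshold. After carrier 5 were higher and 11 lower, with a median of -0.26, and without C57BL/6 carrier replicate 1 it was 4 and 12. CCL3 against carrier gave 15 higher and 1 lower in Ccl3-/-, with a median of 0.55, and 6 higher and 10 lower in C57BL/6, with a median of -0.25. The summed intensity of the 21 genes was 114612 to 115883 in Ccl3-/- after CCL3, 81465.4 to 82068.6 in C57BL/6 after CCL3, 62829.3 to 71699.8 in Ccl3-/- after carrier and 62111.2 to 77773.6 in C57BL/6 after carrier. That sum is mostly Hba-a1 and Hbb-b2. The mean log2 level was taken over the 16 tested genes only, each relative to its own mean. It was -0.25 and -0.03 in C57BL/6 after CCL3 and -0.15 and 0.09 in C57BL/6 after carrier. The order of the C57BL/6 groups in the sum is thus not that of the tested genes. None of the 21 was at 0 on any array, and 5 to 12 of the 21 were under the filter value.

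Of the 4 tested globins, the bright Hbb-b2 was higher after CCL3 in both genotypes and the bright Hba-a1 in Ccl3-/-. In C57BL/6 the Hba-a1 groups overlapped, at 46597.6 and 26790.6 after carrier and 42590.4 and 43494.5 after CCL3. The dim embryonic globins Hba-x and Hbb-y were not alike. Hbb-b2, a beta globin, was at 1.20 ± 0.26 for CCL3 in Ccl3-/-, 0.52 ± 0.26 for CCL3 in C57BL/6 and 0.70 ± 0.26 for genotype after CCL3, but at 0.02 ± 0.26 for genotype after carrier, where Alas2 was at 0.84. Hba-a1, an alpha globin, was at -0.11 ± 0.27 and Slc4a1, the red cell anion exchanger, at -0.51 ± 0.43 in that comparison. Car2 and Bpgm were among the 5 red cell genes that were higher there, where 11 were lower. After carrier, Car2 read 3102.1 and 4038.2 in C57BL/6 and 4325.7 and 3523.8 in Ccl3-/-. Bpgm read 2693.6 and 4634.7 in C57BL/6 and 4628.9 and 4126.9 in Ccl3-/-, so both overlapped. For CCL3 in C57BL/6, Hba-a1 was at 0.28 ± 0.27, Hba-x at -0.53 ± 0.36, Hbb-y at 0.30 ± 0.56 and Slc4a1 at -0.48 ± 0.43, where Alas2 was at 0.68. Globin copies can share signal, so these values may stand for several genes. The difference between Alas2 and the red cell genes after carrier was not tested. The erythroid factors Gata1 and Klf1, which act on the Alas2 gene and on globin genes, were at -0.23 ± 0.50 and -0.05 ± 0.49 there and at 0.09 ± 0.50 and 0.59 ± 0.49 after CCL3. The part of red cell content in the Alas2 differences was not tested.

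**Figure D3:**
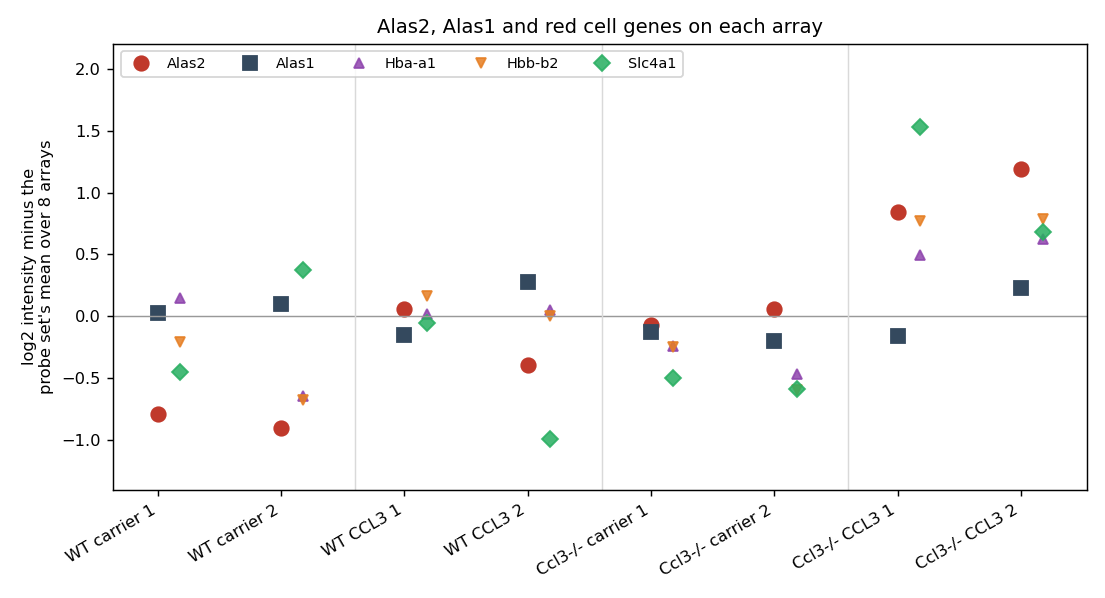
Alas2, Alas1 and the red cell genes Hba-a1, Hbb-b2 and Slc4a1 on each array, as log2(intensity + 102.3) minus each probe set's own mean over the 8 arrays (vertical axis). The CCL3 arrays labelled Ccl3-/- are high for Alas2 and all 3 red cell genes, while on the Ccl3-/- carrier arrays the red cell genes lie below their means and Alas2 near its own.

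**Figure D4:**
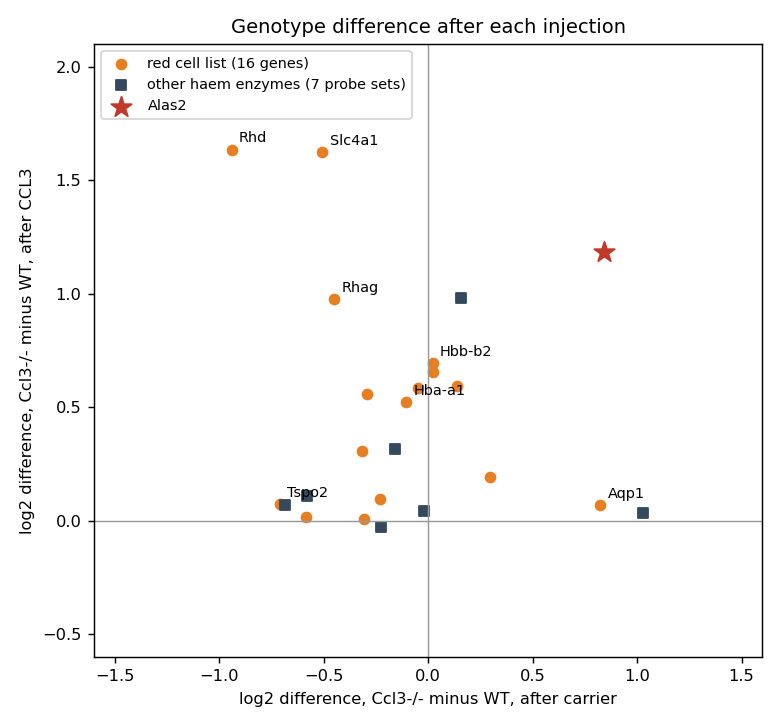
Genotype difference (Ccl3-/- minus C57BL/6, shown as WT) after carrier on the horizontal axis and after CCL3 on the vertical axis, both on the log2(intensity + 102.3) scale, for 16 red cell genes, 7 probe sets of other haem enzymes and Alas2. All 16 red cell genes lie above 0 after CCL3 and 11 lie below 0 after carrier, while Alas2 is at 0.84 and 1.18. Rhd, Hba-x and Nfe2 passed the filter only through the Ccl3-/- arrays after CCL3.

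Over the 8 arrays, the 16 tested red cell genes had a Pearson r with Alas2 from -0.43 (Tspo2) to 0.83 (Hbb-b2), with a median of 0.25 and 13 above 0. Car2 had 0.79, Hba-a1 0.71, Bpgm 0.66 and Slc4a1 0.60, while Klf1 had 0.17, Hba-x 0.04, Hbb-y 0.03 and Gata1 -0.30. Among haem enzymes, r with Alas2 was 0.40 for Alad, 0.15 for Uros and -0.11 for Alas1. It was 0.48 for Urod 94275_at and 0.44 for Urod 161328_i_at. The Cpox probe sets differed in sign, at -0.46 for 98505_i_at and 0.13 for 98506_r_at, and Fech, below the filter, had -0.54. The 8 genes most like Alas2 of 7356 probe sets compared were Tex2, Mtmr1, Rab8b, Ces1d, Ipp, 6430706D22Rik, Pcgf2 and Eral1, with r from 0.90 to 0.95. The 5 most like Alas1 were Aldh2, Hspa2, Pgf, Daglb and 2310061I04Rik, with r from 0.90 to 0.93, and Cpox 98506_r_at had 0.79 with Alas1. With 8 arrays in 4 groups and this many probe sets, such r are a description of these arrays.

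Other genes of haem handling did not pass the adjusted threshold either, at 0 of 8 for further enzymes and transport, 0 of 13 for iron handling, 0 of 6 for breakdown and scavenging and 0 of 15 for haem-using enzymes in each of the 7 comparisons by limma. Abcb10, a mitochondrial transporter needed for haem synthesis in red cells, had the smallest p by genotype average among further enzymes and transport (unadjusted p = 0.032, adjusted p = 0.808 in limma), at 0.52 ± 0.31 after carrier and 0.57 ± 0.31 after CCL3. It read 371.4 and 505.7 in C57BL/6 after carrier and 582.8 and 765.1 in Ccl3-/- after carrier, and after CCL3 426.3 to 690.1 and 798.5 to 921.5, without overlap in either. Hp, the scavenger of free haemoglobin and an acute phase gene, was at 1.85 ± 0.77 for genotype after carrier and -0.04 ± 0.77 after CCL3. After CCL3 its replicates lay far apart, at 1911.2 and 14339.4 in C57BL/6 and 3274.6 and 8021.5 in Ccl3-/-. Hpx, the scavenger of free haem, exceeded the filter value only on the C57BL/6 carrier arrays, at 374.6 and 884.8, and read 136.9 to 255.6 on the others. It was thus tested only through the group in which it was high, and no difference is given for it. Hmox1, the enzyme that opens the haem ring, read 4929.3 to 7553 with a median of 5122.1.

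Among iron genes, counts by genotype were 7 higher and 6 lower after carrier and 5 higher and 8 lower after CCL3. The transferrin receptor gene Tfrc, which brings iron into red cell precursors, read 4624.1 to 9088 with a median of 5298.2, and its highest arrays were Ccl3-/- carrier replicate 1 and C57BL/6 CCL3 replicate 2. Cp, which encodes the iron oxidase ceruloplasmin and is an acute phase gene too, was at 1.55 ± 0.51 for genotype after carrier and -2.07 ± 0.51 for CCL3 in Ccl3-/-. Averaged over genotypes, 10 of the 13 iron genes were lower after CCL3, with a median of -0.18 against 0.01 over all probe sets, and 12 of 13 were without C57BL/6 carrier replicate 1.

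The summed intensity of the 23 haem-using genes on the array was 176033 to 185960 in C57BL/6 after CCL3 and 169558 to 183772 in Ccl3-/- after CCL3, and 130659 to 161366 on the 4 carrier arrays. The brightest genes dominate that sum. By count, 8 of the 15 tested were higher for CCL3 in C57BL/6 and 9 in Ccl3-/-, and 11 averaged over genotypes. Over all tested probe sets, 48.2%, 54% and 51.6% were higher in that order. Without C57BL/6 carrier replicate 1 the count was 7 of 15 in C57BL/6 and 11 averaged. Cyp1b1 exceeded the filter value only on carrier arrays, so it is among the 15 only through the injection in which it was high. Cyp2f2, a P450 of the nasal lining, was at 0.91 ± 0.39 for CCL3 in C57BL/6. It read 13644.6 on C57BL/6 carrier replicate 1 and 36264.8 to 46946.9 on the other 7 arrays. Cyp1a2, another P450, was at 0.76 ± 0.36 for CCL3 in Ccl3-/- and 0.51 ± 0.36 in C57BL/6. Each carrier group held 1 low array, at 14171.2 beside 29109.6 in Ccl3-/- and 19137.5 beside 33425.4 in C57BL/6, while the CCL3 arrays read 31976.1 to 37150.8. Mpo, the haem peroxidase of neutrophil precursors, read 39.9 to 167.8 on the C57BL/6 arrays, 70.8 and 508.5 in Ccl3-/- after carrier and 870.8 and 450.3 in Ccl3-/- after CCL3. It passed the filter only through arrays labelled Ccl3-/-, so its genotype difference is not given. For genotype after CCL3, 7 of 11 tested neutrophil markers were higher, with a median of 0.72, where 52.8% of all tested probe sets were higher. These 11 include Mpo and Ngp, which passed the filter in that way. They also include Prtn3, which among C57BL/6 arrays exceeded the filter value only on carrier replicate 1, so the neutrophil count is partly set by the filter. Of 9 macrophage markers 4 were higher, with a median of -0.04.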

How the data were processed

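Per the labels, total RNA of mouse olfactory mucosa was read on 8 single-colour arrays, grouped by title. In the deposited table each probe set has 1 linear intensity per array. How the authors corrected background and scaled is not given in the sources used. Trimmed means (2% off each end) agreed within 0.00834% over the arrays, so no further normalization was done. Gene names come from the platform annotation of 2016: 10855 probe sets have 1 symbol, 396 several and 1237 none.

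Values were taken as log2(intensity + 102.3), the 20th percentile. Control probe sets were dropped, and the 8150 others with 2 or more arrays above 362.7 (the 40th percentile) were tested. The 4 groups shared 1 fit in limma 3.58.1 under R 4.3.3, with an intensity trend and 4 residual degrees of freedom, with Benjamini-Hochberg adjustment over the 8150. The brightest probe set stood for a listed gene. Members are always named; up to 5 genes of a list were named by smallest p, and genes like Alas2 or Alas1 by Pearson r. Hba-a1, Hbb-b2, Slc4a1, Gata1, Klf1, Hba-x, Hbb-y, Rhd, Nfe2, Car2 and Bpgm were named in some places outside that rule, after their values were seen. So were Tspo2, Ngp, Prtn3, Cyp1b1, Tfrc, Hmox1 and Adcy3. The members and lists were chosen with earlier results of these data known. Alternatives were other normalizations, pseudocounts, filters, fits and thresholds, the replicate number as a block, and each array left out; list counts without C57BL/6 carrier replicate 1 were added after seeing the data. The fit was tested on simulated data. Figures were drawn with matplotlib. The labels do not say that a replicate number marks a shared animal or day, and the deviations of same-numbered arrays correlated from -0.158 to 0.178 between groups, so the numbers were not taken as pairs.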

Additional observations from a re-analysis of the deposited data

How the results depend on the processing

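Over the processing settings, 624 of 634 member values kept their sign and 0 moved by more than their standard error or passed the threshold. The other filters, the fit without trend, the replicate block, the fit of only the groups compared and the other threshold cannot change a difference. Only the normalizations and pseudocounts could move a value, so these counts overstate how steady the values are. With arrays left out, 407 of 448 kept their sign, 26 moved by more than that and 2 passed, both Urod 94275_at. Leaving out an array that is not part of a comparison cannot move that difference, so these counts too include values that could not change. A group left with 1 array is assumed to vary like the others. The number of probe sets called was 0 in all 7 comparisons. It was 1 with the replicate block for genotype after carrier, the genotype average and the CCL3 average, 1 for genotype after CCL3 with only the groups compared, and 1 for the genotype average at an adjusted p of 0.1. With arrays left out it ranged from 0 to 110 for genotype after carrier, 0 to 73 for CCL3 in C57BL/6, 0 to 23 for the CCL3 average, and 0 to 1 for genotype after CCL3, CCL3 in Ccl3-/- and the genotype average. The counts of 110, 73 and 23 came without C57BL/6 carrier replicate 2, which leaves the array with the high Gapdh ratio alone in its group. The shift of Alas2 minus Alas1 by genotype was 0.99 to 1.40 with arrays left out (exact permutation p from 0.0286 to 0.114), and with the replicate block its exact permutation p was 0.111, where 0.0556 is the smallest possible. Red cell counts kept their majority without C57BL/6 carrier replicate 1. Of the 6 tested members, 2 were then higher for CCL3 in C57BL/6, in place of 4.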
